A study of Homo sapiens with 36 samples.

Results

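The genes of sterol and fatty acid synthesis were followed through 36 single-colour arrays of HK-2, a cell line that was immortalized from proximal tubule cells of a human kidney. The list held 31 genes in 3 roles. There were 18 enzymes of the route from acetyl-CoA to cholesterol and 9 of fatty acid synthesis and its precursors. The other 4 genes regulate the pathway or carry its product. A gene was represented by its brightest probe set, judged by the mean of the 36 arrays, and was kept if that probe set exceeded a log2 value of 4 on at least 3 arrays. By this rule 27 of the 31 genes were measured, among 11092 genes in all: 16 sterol enzymes, 7 fatty acid enzymes and all 4 regulators and carriers. No probe set was named for FDFT1, the squalene synthase, in the annotation used here. The probe sets of CYP51A1 and FADS1 were each named for a second gene as well and were not used. FADS2, a fatty acid desaturase, had 2 probe sets, of which the brighter averaged 3.16 and exceeded 4 on 0 arrays.

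Cells had been treated with CdCl or Di for 12 h or 48 h, each against vehicle of that time, or with Kbr at a low or a high dose for 24 h or 48 h, against its own vehicle. This made 12 groups of 3 arrays, and the labels call the arrays of a group biological replicates without saying how the cultures were kept apart. CdCl and Di shared their vehicle arrays, and so did both doses of Kbr. The names CdCl, Di and Kbr are as the labels give them, and neither the doses nor the vehicle are stated there. All groups were grown in a defined medium with insulin, hydrocortisone and epidermal growth factor, for which the labels list no serum, and were treated near confluency. The design text gives the aim as finding expression signatures of nephrotoxicity.

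Cholesterol and fatty acids are both built from cytosolic acetyl-CoA, which ACLY cuts from citrate and ACSS2 makes from acetate. The sterol route runs through mevalonate and the isoprenoid diphosphates to squalene and lanosterol, and a series of reductases, oxidases and isomerases turns lanosterol into cholesterol. Most of these genes are targets of the transcription factors SREBF1 and SREBF2, which are held in the endoplasmic reticulum by INSIG1 when sterols are plentiful and travel to the Golgi to be cut free when sterols are scarce. SREBF2 acts mainly on sterol genes and SREBF1 mainly on fatty acid genes, and both bind the sterol regulatory element together with the CCAAT-binding factor NF-Y.

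Promoters are shown for the genes that passed the test in at least 7 of the 8 comparisons with vehicle, other than SQLE, and for SREBF2, the one member whose window held the element searched. Each sequence runs 5′ to 3′ on the gene's strand, from 250 bases before to 50 bases after the RefSeq start on GRCh38.p14, and is credited to RefSeq. Capitals mark matches to the sterol regulatory element TCACNCCAC or to CCAAT, on either strand, so that a CCAAT box on the other strand reads ATTGG.
ACSS2, + strand, chr20:34874739-34875038: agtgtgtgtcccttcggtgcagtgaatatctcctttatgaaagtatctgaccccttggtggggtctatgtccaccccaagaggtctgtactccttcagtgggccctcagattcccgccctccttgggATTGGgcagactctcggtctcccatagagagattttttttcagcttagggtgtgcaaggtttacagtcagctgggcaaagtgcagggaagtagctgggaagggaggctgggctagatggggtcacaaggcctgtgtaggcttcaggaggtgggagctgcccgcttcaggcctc
ACLY, - strand, chr17:41918973-41919272: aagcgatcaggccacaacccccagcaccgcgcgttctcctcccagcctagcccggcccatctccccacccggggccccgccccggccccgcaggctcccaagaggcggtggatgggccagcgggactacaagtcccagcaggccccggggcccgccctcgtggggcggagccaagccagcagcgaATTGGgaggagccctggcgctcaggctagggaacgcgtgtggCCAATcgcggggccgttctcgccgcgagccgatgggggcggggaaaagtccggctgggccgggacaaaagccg
TM7SF2, + strand, chr11:65111622-65111921: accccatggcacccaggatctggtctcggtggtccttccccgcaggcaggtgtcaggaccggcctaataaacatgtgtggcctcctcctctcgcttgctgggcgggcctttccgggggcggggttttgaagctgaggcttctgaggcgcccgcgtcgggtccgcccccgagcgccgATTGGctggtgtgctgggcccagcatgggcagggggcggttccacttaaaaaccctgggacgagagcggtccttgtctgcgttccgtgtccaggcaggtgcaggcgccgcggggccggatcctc
FDPS, + strand, chr1:155308616-155308915: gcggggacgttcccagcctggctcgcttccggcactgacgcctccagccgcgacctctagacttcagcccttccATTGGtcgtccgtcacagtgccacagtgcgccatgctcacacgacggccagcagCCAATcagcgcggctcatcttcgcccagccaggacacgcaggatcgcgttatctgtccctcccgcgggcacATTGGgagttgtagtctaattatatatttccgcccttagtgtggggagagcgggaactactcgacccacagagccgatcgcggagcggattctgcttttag
MSMO1, + strand, chr4:165327419-165327718: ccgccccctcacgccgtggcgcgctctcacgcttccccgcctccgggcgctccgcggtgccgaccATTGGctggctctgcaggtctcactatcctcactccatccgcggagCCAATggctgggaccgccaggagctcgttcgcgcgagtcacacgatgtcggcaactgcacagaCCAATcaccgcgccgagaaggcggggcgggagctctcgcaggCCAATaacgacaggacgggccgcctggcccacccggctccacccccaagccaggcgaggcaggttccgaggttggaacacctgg
SREBF2, + strand, chr22:41832855-41833154: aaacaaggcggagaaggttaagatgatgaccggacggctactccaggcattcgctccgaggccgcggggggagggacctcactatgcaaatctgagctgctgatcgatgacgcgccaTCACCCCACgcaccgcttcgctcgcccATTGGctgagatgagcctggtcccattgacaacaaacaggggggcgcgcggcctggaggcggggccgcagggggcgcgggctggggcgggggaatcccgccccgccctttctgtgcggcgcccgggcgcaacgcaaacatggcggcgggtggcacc
A promoter was found for 24 of the 27 measured genes. CCAAT occurred in 18 of the 24, or 75%, against 35.7% of all 27305 promoters in the table. The sterol regulatory element letters occurred in 1 of the 24, that of SREBF2, against 1.15% of all promoters. A match is a description of the letters in this window and not a bound site.

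The deposited values are log2 expression made with GCRMA, so a difference of 1 is a change by a factor of 2. The 36 arrays were alike in their medians, which lay between 2.91 and 3.02. Of 7 renal and tubular epithelial markers with a probe set, 6 exceeded 4 on every array, PAX8 and EPCAM among them, and PAX2 on none. All 6 markers of the differentiated proximal tubule (LRP2, CUBN, SLC34A1, AQP1, ANPEP and GGT1) lay below 4 on every array, so epithelial markers were present and those of the mature tubule were not detected. Of 5 markers of leukocytes, endothelium, fat and liver, 4 lay below 4 on all arrays and PECAM1 exceeded it on 1. Actin read from its 3′ probe set minus actin read from its 5′ probe set, which widens as RNA degrades, averaged 1.40 to 1.84 in the CdCl and Di groups and their vehicles and 0.866 to 1.06 in the Kbr groups and theirs. The same difference for GAPDH was small in every group. It averaged from -0.115 (low Kbr, 24 h) to 0.098 (vehicle of CdCl and Di, 12 h). In bulk RNA, fewer cells of a type and less RNA per cell cannot be told apart.

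Across the 8 comparisons with vehicle the pathway moved mainly downward, as the map of all members shows. Here and below, a gene is said to have risen or fallen if its limma test gave an adjusted p under 0.05 over all 11092 genes, and ± is the SE of that model. ACLY and ACSS2, the suppliers of acetyl-CoA, were lower in all 8 comparisons. FDPS and TM7SF2 were lower in 7 of 8, all but Di at 12 h. With each array centred on its median, the calls of ACLY, FDPS and TM7SF2 for CdCl at 12 h were lost. The ACLY call for Di at 12 h was lost with centring too, and with the mean of its kept probe sets. SQLE and MSMO1 also passed in 7, SQLE as lower in 6 and MSMO1 as lower in 5, and both were higher after Di at 48 h. Over the 8 comparisons 20 members were never higher, 2 were never lower (NSDHL and STARD4), and 5 passed in both directions. The 8 comparisons share vehicle arrays in pairs, so these counts are not independent of each other. No such counts over all genes are given, and the shares of all genes in each comparison follow below.

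**Figure D1:**
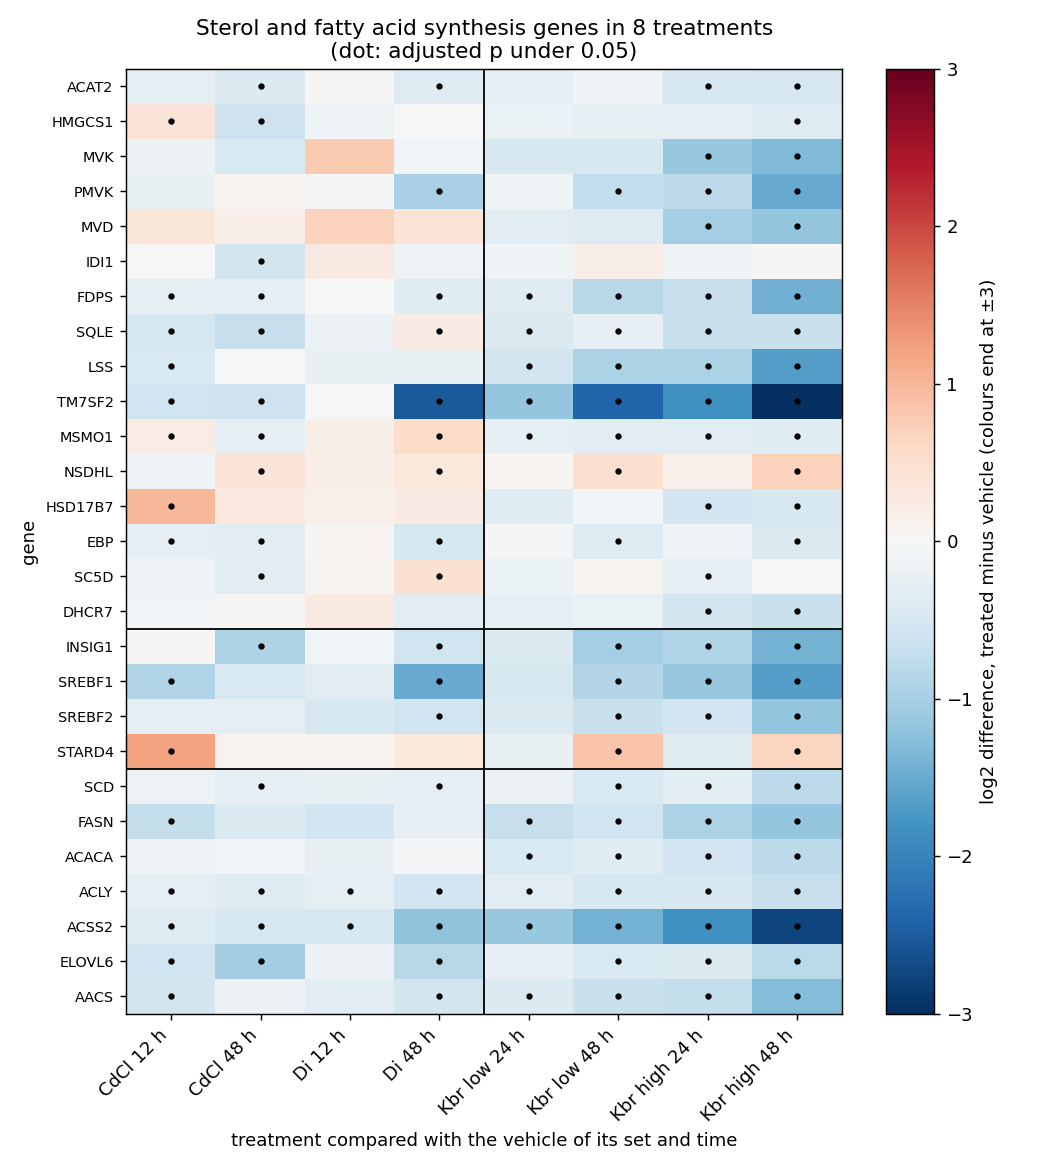
Differences of the 27 measured genes in 8 comparisons with vehicle. Columns are treatments, rows are genes (sterol enzymes above the first line, regulators and carrier between the lines, fatty acid enzymes below), colour is the log2 difference of treated minus vehicle and ends at ±3, and dots mark adjusted p under 0.05. Both Kbr doses at 48 h and the high dose at 24 h are blue in nearly every row, TM7SF2 is the darkest at -4.62, and Di at 12 h has 2 dots.

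Kbr at the high dose lowered nearly the whole pathway at both times. At 48 h, 23 of 27 members fell and 2 rose, where 34.5% of all genes fell and 27.3% rose. At 24 h, 22 fell and 0 rose, against 25.3% and 15.4% of all genes. The median member difference was -0.58 at 24 h and -0.79 at 48 h, beside -0.06 and -0.06 over all genes. By role, 12 of 16 sterol enzymes fell at 24 h and 13 at 48 h. All 7 fatty acid enzymes fell at both times, as did 3 of the 4 regulators and carriers. With the low dose 10 members fell and 0 rose at 24 h, against 8.28% and 6.93% of all genes, and 17 fell and 2 rose at 48 h, against 23.2% and 23.8%. The low-dose medians were -0.33 and -0.46, beside -0.01 and 0.00 over all genes.

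The replicate numbers of the Kbr set were taken to pair its arrays (the check is given with the processing), and a fit with the replicate number as a block left every difference as it was and changed only its error. With this block more genes passed in each comparison of the set, so its member counts stand beside the shares of all genes under the same fit. The low dose at 24 h had 16 members lower and 0 higher, against 14.0% and 10.5% of all genes. The added members were ACAT2 (adjusted p = 0.0239), SC5D (0.0351), DHCR7 (0.0144), SREBF1 (0.0347), SREBF2 (0.00139) and SCD (0.0361). At 48 h the block added MVK (0.0291) and DHCR7 (0.0241) to the low-dose falls, which made 19 lower and 2 higher, against 26.5% and 27.0% of all genes. The high-dose counts of 22 and 25 were equal with and without it, while the shares of all genes lower and higher became 30.2% and 18.7% at 24 h and 36.8% and 29.5% at 48 h.

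TM7SF2, a reductase of the sterol ring that acts just after CYP51A1, had the largest fall of the pathway. At 48 h it lay at 8.50, 8.15 and 8.37 with vehicle, at 6.56, 5.93 and 5.33 with the low dose and at 4.07, 3.55 and 3.54 with the high dose. The 3 ranges did not overlap, and the high-dose mean of 3.72 was under the floor of 4, so the high dose was at least 20.3-fold lower than vehicle. The fitted differences were -4.62 ± 0.22 for the high dose (adjusted p = 1.87e-15) and -2.40 ± 0.22 for the low dose (adjusted p = 2.78e-09). At 24 h TM7SF2 lay at 8.32, 7.87 and 7.62 with vehicle, 7.18, 6.47 and 6.68 with the low dose and 6.17, 5.86 and 6.30 with the high dose, again without overlap. LSS, which closes squalene epoxide to lanosterol, stood at 10.30, 10.17 and 10.25 with vehicle at 48 h, 9.38, 9.14 and 9.35 with the low dose and 8.69, 8.41 and 8.59 with the high dose. The high-dose difference was -1.68 ± 0.11 (adjusted p = 7.19e-13), a 3.20-fold fall.

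**Figure D2:**
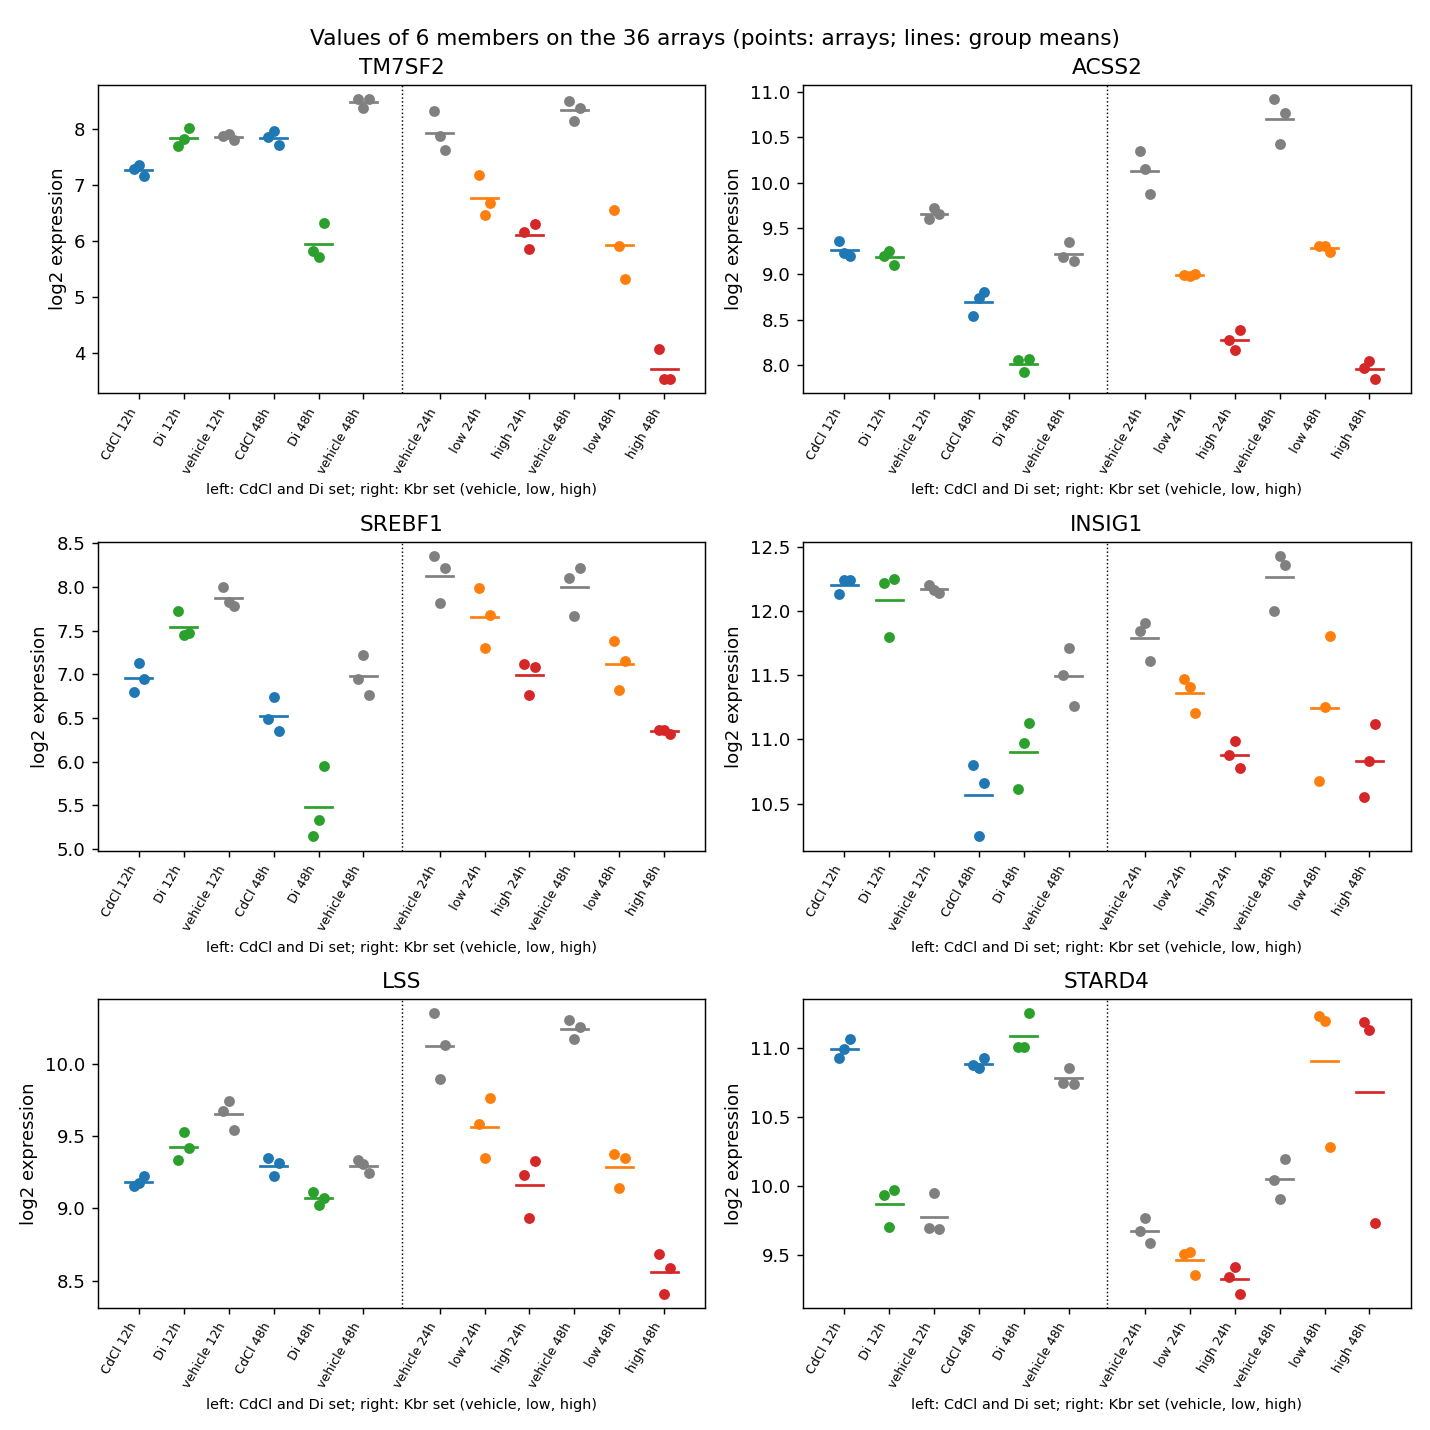
Log2 expression of 6 members on all 36 arrays. Each panel is a gene, points are arrays, short lines are group means, and the dotted line parts the CdCl and Di set (12 h, then 48 h) from the Kbr set (vehicle, low and high dose at 24 h, then at 48 h). TM7SF2 falls in steps to 4.07, 3.55 and 3.54 with high Kbr at 48 h, and STARD4 is near 11 on 2 of 3 arrays of both Kbr doses at 48 h and lower on the third.

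Among the isoprenoid steps FDPS, which makes farnesyl diphosphate, lay at 12.74, 12.83 and 12.86 with vehicle at 48 h, 11.86, 12.09 and 11.96 with the low dose and 11.22, 11.43 and 11.44 with the high dose. Each step lowered it beyond the spread of the arrays, to -0.84 ± 0.08 and -1.45 ± 0.08 relative to vehicle (adjusted p = 7.42e-09 and 3.73e-14). PMVK, the phosphomevalonate kinase, read 8.05, 7.85 and 7.89 with vehicle, 7.39, 7.04 and 7.17 with the low dose and 6.51, 6.47 and 6.24 with the high dose at 48 h. At 24 h PMVK had passed only with the high dose (-0.80 ± 0.13, adjusted p = 1.91e-05), and its low-dose difference was -0.16 ± 0.13 (adjusted p = 0.455). MVK, the mevalonate kinase, read 7.12, 6.72 and 6.78 with the high dose at 48 h, against 8.65, 7.41 and 8.52 with vehicle. The vehicle arrays spread widely and all lay above the high-dose arrays, and MVK fell by 1.32 on the log2 scale (adjusted p = 0.000106).

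The other early enzymes moved less. ACAT2, which joins acetyl-CoA units, fell with the high dose at both times (-0.48 ± 0.13 and -0.51 ± 0.13). HMGCS1, the synthase that feeds the mevalonate step, fell with the high dose at 48 h only (-0.39 ± 0.13, adjusted p = 0.0117), and its values at 24 h were -0.19 ± 0.13 and -0.27 ± 0.13 for low and high. IDI1, the isopentenyl diphosphate isomerase, passed in none of the 4 Kbr comparisons, with differences from -0.16 to 0.21 over them. MVD, the mevalonate diphosphate decarboxylase, fell by 1.18 on the log2 scale at 48 h with the high dose (adjusted p = 0.0138). Its high-dose arrays at 48 h read 5.48, 4.92 and 5.00, the vehicle arrays 6.62, 5.16 and 7.16, and the groups overlapped.

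Of the later sterol enzymes, SQLE, which oxidizes squalene, fell in all 4 Kbr comparisons, from -0.25 ± 0.10 (low dose, 48 h) to -0.70 ± 0.10 (high dose, 24 h). MSMO1, which oxidizes methyl groups of the ring, fell by 0.28 to 0.37 on the log2 scale in all 4. DHCR7, whose product is cholesterol, fell with the high dose at 24 h and 48 h (-0.54 ± 0.16 and -0.66 ± 0.16). EBP, a sterol isomerase, fell at 48 h with both doses (-0.39 ± 0.11 and -0.44 ± 0.11). SC5D, the sterol desaturase, fell only with the high dose at 24 h (-0.29 ± 0.09), and its high-dose value at 48 h was -0.01 ± 0.09 (adjusted p = 0.940). NSDHL, a dehydrogenase of the same segment, went the other way. At 48 h its arrays read 9.02, 8.87 and 9.38 with vehicle, 9.53, 9.47 and 9.70 with the low dose and 9.73, 9.74 and 9.87 with the high dose. It rose by 0.48 ± 0.13 and 0.69 ± 0.13 (adjusted p = 0.00282 and 2.83e-05).

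All 3 regulators that sense or answer sterols fell with the high dose. SREBF1 lay at 8.35, 7.82 and 8.22 with vehicle, 7.98, 7.30 and 7.68 with the low dose and 7.11, 6.76 and 7.09 with the high dose at 24 h. At 48 h its values were 8.10, 7.67 and 8.22 with vehicle, 7.38, 6.82 and 7.15 with the low dose and 6.36, 6.37 and 6.31 with the high dose. The low-dose arrays overlapped vehicle at 24 h and none did at 48 h, where SREBF1 fell by 0.88 and 1.65 on the log2 scale (adjusted p = 0.000546 and 3.37e-08). SREBF2 read 8.92, 8.20 and 8.63 with vehicle, 8.11, 7.65 and 7.97 with the low dose and 7.54, 7.19 and 7.53 with the high dose at 48 h. At 24 h it read 8.67, 7.95 and 8.27, 8.01, 7.67 and 7.93 and 8.04, 7.43 and 7.67 in the same order, with groups that overlapped. Its differences were -0.58 ± 0.17 (high, 24 h, adjusted p = 0.00727), -0.68 ± 0.17 (low, 48 h) and -1.16 ± 0.17 (high, 48 h, adjusted p = 1.11e-06). The arrays of replicate 2 were the lowest of their group for SREBF1 and SREBF2 in each Kbr group at 24 h and in vehicle and the low dose at 48 h.

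INSIG1, which retains the SREBF proteins and is itself one of their targets, stood at 12.00, 12.43 and 12.36 with vehicle, 10.68, 11.25 and 11.81 with the low dose and 10.56, 10.83 and 11.12 with the high dose at 48 h. The differences were -1.02 ± 0.20 and -1.43 ± 0.20 (adjusted p = 0.000144 and 6.01e-07). At 24 h the values were 11.84, 11.91 and 11.61, 11.47, 11.41 and 11.20 and 10.88, 10.99 and 10.78 in the same order, and INSIG1 passed with the high dose (-0.91 ± 0.20, adjusted p = 0.000679). STARD4, a carrier of cholesterol between membranes, rose at 48 h in both doses. Its arrays read 10.05, 9.91 and 10.20 with vehicle, 11.23, 11.20 and 10.29 with the low dose and 11.19, 11.13 and 9.73 with the high dose. Replicate 3 stood far below the other arrays of both treated groups, and in the high dose it lay below all vehicle arrays. STARD4 rose by 0.86 ± 0.24 (adjusted p = 0.00394) with the low dose and by 0.63 ± 0.24 (adjusted p = 0.0217) with the high dose. Without replicate 3 of the treated group these were 1.17 and 1.11.

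In fatty acid synthesis ACSS2, the acetate-activating enzyme, changed most. It lay at 10.92, 10.43 and 10.77 with vehicle, 9.31, 9.31 and 9.24 with the low dose and 7.97, 8.05 and 7.84 with the high dose at 48 h, a 6.73-fold fall with the high dose (-2.75 ± 0.11, adjusted p = 5.31e-17). At 24 h its values were 10.35, 10.16 and 9.88, 8.99, 8.98 and 9.00 and 8.28, 8.17 and 8.39 in the same order, and no 2 of these groups overlapped at either time. AACS, which activates acetoacetate in the cytosol, averaged 7.97 ± 0.036 with the high dose and 9.28 ± 0.185 with vehicle at 48 h (SD, 3 arrays each), a difference of -1.30 ± 0.13. FASN, the fatty acid synthase, read 9.92, 9.21 and 9.82 with vehicle, 9.33, 8.75 and 9.07 with the low dose and 8.65, 8.26 and 8.59 with the high dose at 48 h. Replicate 2 was the lowest FASN array in each of these groups, and the high-dose difference was -1.16 ± 0.19 (adjusted p = 8.14e-06). With the high dose at 48 h, ACACA, the carboxylase that makes malonyl-CoA, fell by 0.78, SCD, the desaturase, by 0.79, ELOVL6, an elongase, by 0.81 and ACLY by 0.69 on the log2 scale. The same 4 fell with the low dose at 48 h, by 0.38, 0.47, 0.46 and 0.48.

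Some of these calls were lost when 1 array was left out, in fits that did not use the replicate block. In the high dose at 48 h, 22 of 25 calls held when any 1 array was left out. HSD17B7, a keto-sterol reductase, had 10.05, 10.22 and 9.09 with the high dose against 10.30, 10.26 and 10.27 with vehicle, and its fall of 0.49 became -0.14 and lost its call without high-dose replicate 3. STARD4 lost its call without vehicle replicate 2 or high-dose replicate 1 or 2 (0.38 to 0.56), and MVD without vehicle replicate 1 or 3 (-1.02 to -0.76). In the high dose at 24 h 17 of 22 held. MVD was lost without vehicle replicate 1 or 3 or high-dose replicate 2 or 3 (-1.09 to -0.60), HSD17B7 without vehicle replicate 2 or high-dose replicate 1 (-0.50 to -0.45) and SREBF2 without vehicle replicate 1 or high-dose replicate 2 (-0.44 to -0.40). DHCR7 (-0.37) and SC5D (-0.25) were lost without high-dose replicate 2. In the low dose 7 of 10 calls held at 24 h and 16 of 19 at 48 h. FASN was lost without vehicle replicate 1 or 3 or low-dose replicate 2, at 24 h (-0.57 to -0.55) and at 48 h (-0.52 to -0.45). At 24 h AACS was lost without the same 3 replicates (-0.34 to -0.25) and MSMO1 without vehicle replicate 1 or low-dose replicate 2 (-0.26 to -0.25). At 48 h SQLE was lost without vehicle replicate 1 or 3 or low-dose replicate 1 (-0.25 to -0.15) and EBP without low-dose replicate 1 (-0.26).

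The high and low doses of Kbr were compared directly at each time. At 48 h 17 members were lower in the high than in the low dose and 0 higher, where 17.3% of all genes were lower and 6.46% higher. Centring each array on its median shifted this comparison of all genes by about 0.1 (median -0.06 before, 0.04 after), gave 1297 genes lower and 1352 higher in place of 1922 and 716, and left 10 members lower and 0 higher. At 24 h 5 were lower and 0 higher, against 3.71% and 0.685% of all genes. Among the members that passed, the 48 h differences, high minus low, were largest for TM7SF2 (-2.22 ± 0.22, at least 3.84-fold), ACSS2 (-1.33 ± 0.11), MVK (-0.85 ± 0.27), PMVK (-0.79 ± 0.13), SREBF1 (-0.77 ± 0.20) and LSS (-0.73 ± 0.11), the last with an adjusted p of 2.36e-05. MVD differed by -0.80 ± 0.41 without passing (adjusted p = 0.164). INSIG1 was not told apart between the doses at 48 h (-0.41 ± 0.20, adjusted p = 0.145), nor were STARD4 (-0.22 ± 0.24) and NSDHL (0.21 ± 0.13). At 24 h the members lower in the high dose were PMVK (-0.64 ± 0.13), ACSS2 (-0.71 ± 0.11), SREBF1 (-0.67 ± 0.20), LSS (-0.40 ± 0.11) and FDPS (-0.33 ± 0.08). With the replicate block, 9 were lower and 0 higher at 24 h, against 8.58% and 1.97% of all genes in that fit, the added ones being MVK (adjusted p = 0.0221), SQLE (0.0241), TM7SF2 (0.0135) and DHCR7 (0.0200). At 48 h it added MVD (0.0375) and HSD17B7 (0.0424), for 19 lower and 0 higher, against 23.0% and 9.84% of all genes. Left-out arrays brought the 48 h count down to 10 without low-dose replicate 3 and the 24 h count to 2 without high-dose replicate 1 or 2 or low-dose replicate 3, and to 3 without low-dose replicate 1. At 48 h 10 of 17 calls held when any 1 array was left out, and ACAT2, MVK, DHCR7, SREBF2, FASN, ACLY and ELOVL6 were each lost without 3 to 5 of the 6 arrays. At 24 h FDPS, LSS and SREBF1 were each lost without 4 or 5 of 6, and PMVK and ACSS2 held.

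**Figure D3:**
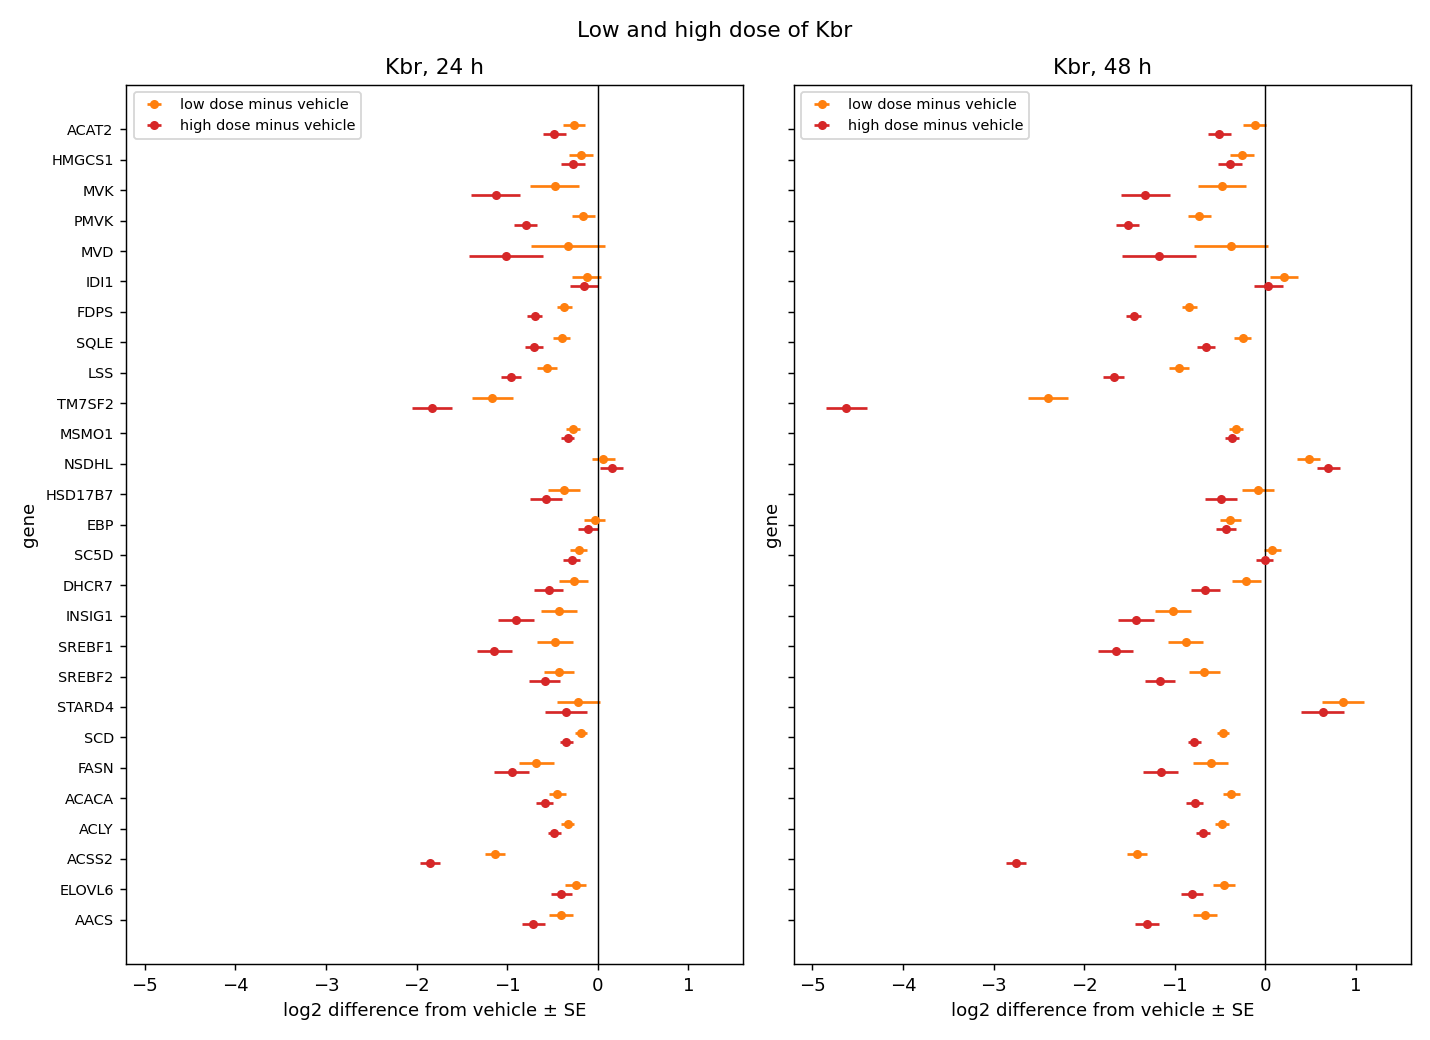
Low-dose and high-dose differences from vehicle for the 27 genes, at 24 h (left) and 48 h (right). The horizontal axis is the log2 difference with its SE, and each row is a gene. High-dose points lie left of low-dose points for most genes, by -2.22 for TM7SF2 at 48 h, while NSDHL and STARD4 lie right of 0 at 48 h.

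CdCl lowered part of the pathway, with a share of falls further from that of all genes at 48 h than at 12 h. The share of members that rose at 12 h was near that of all genes. At 12 h 11 members fell (40.7%) and 4 rose (14.8%), where 30.5% of all genes fell and 13.4% rose. The member median was -0.23 beside -0.16 over all genes. At 48 h 14 fell and 1 rose, against 22.0% and 20.7% of all genes, with a median of -0.32 beside -0.01. With each array centred, 7 members fell and 4 rose at 12 h. Over all genes 2522 then fell and 1780 rose, in place of 3386 and 1484. At 12 h 5 of 7 fatty acid enzymes fell, and of the 16 sterol enzymes 5 fell and 3 rose. At 48 h 4 of 7 fatty acid enzymes fell, and of the sterol enzymes 9 fell and 1 rose. Di left the pathway nearly level at 12 h in this fit, with 2 members lower and 0 higher, against 4.60% and 1.67% of all genes. Fitted on the arrays of its own set, Di at 12 h had 7 members lower and 2 higher. No share of all genes is given for that fit. At 48 h Di had 13 members lower and 4 higher, against 23.9% and 19.1% of all genes, and all 4 that rose were sterol enzymes. The Di medians were -0.04 and -0.26 at 12 h and 48 h, beside -0.07 and -0.02.

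The genes that rose with CdCl at 12 h were STARD4, HSD17B7, HMGCS1 and MSMO1. STARD4 read 10.93, 10.99 and 11.07 with CdCl, against 9.70, 9.95 and 9.69 with vehicle, a 2.33-fold rise without overlap (1.22 ± 0.24, adjusted p = 0.000141). HSD17B7 read 11.12, 11.14 and 11.49 with CdCl, against 10.28, 10.24 and 10.22 with vehicle (1.00 ± 0.18, adjusted p = 5.09e-05). HMGCS1 rose by 0.40 ± 0.13 and MSMO1 by 0.23 ± 0.08. At 48 h none of the 4 was higher: HMGCS1 (-0.62 ± 0.13) and MSMO1 (-0.30 ± 0.08) fell, and STARD4 (0.11 ± 0.24) and HSD17B7 (0.28 ± 0.18) did not pass. NSDHL was the 1 member higher at 48 h (0.39 ± 0.13, adjusted p = 0.0150).

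Of the falls with CdCl, SREBF1 was the largest at 12 h. It read 6.80, 7.13 and 6.95 with CdCl, 7.72, 7.45 and 7.47 with Di and 8.01, 7.83 and 7.78 with vehicle, and fell by 0.91 with CdCl (adjusted p = 0.000426), while Di gave -0.33 ± 0.20 (adjusted p = 0.344). FASN at 12 h read 8.63, 8.61 and 8.56 with CdCl, against 9.23, 9.29 and 9.44 with vehicle (-0.72 ± 0.19). ELOVL6, the elongase, was the largest fall at 48 h, with 7.83, 7.64 and 7.88 for CdCl, 7.87, 7.97 and 8.11 for Di and 8.88, 8.93 and 8.66 for vehicle. Both treated groups lay below vehicle on every array, by -1.04 ± 0.12 and -0.84 ± 0.12 (adjusted p = 4.19e-08 and 1.26e-06). INSIG1 read 10.80, 10.24 and 10.66 with CdCl, 10.61, 10.97 and 11.13 with Di and 11.50, 11.71 and 11.26 with vehicle at 48 h. It fell by 0.92 with CdCl and 0.59 with Di, both without overlap with vehicle (adjusted p = 0.000451 and 0.0188). At 12 h INSIG1 read 12.13, 12.24 and 12.24, 12.21, 11.80 and 12.25 and 12.20, 12.16 and 12.14 in the same order, and neither difference passed (0.04 ± 0.20 and -0.08 ± 0.20). At 48 h the dimmest of its 3 kept probe sets read 8.14, 8.02 and 8.07 with CdCl, against 8.11, 8.09 and 8.01 with vehicle. The middle one read 9.80, 9.66 and 9.76, against 10.29, 10.31 and 10.15. With Di both lay below vehicle on every array. SQLE fell with CdCl at both times (-0.52 ± 0.10 and -0.68 ± 0.10). The fall at 12 h rests on the probe set used, as the mean of the 4 kept SQLE probe sets gave 0.025 (adjusted p = 0.907).

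Di at 48 h acted most on TM7SF2, SREBF1, ACSS2 and PMVK. TM7SF2 read 5.84, 5.73 and 6.32 with Di and 7.87, 7.96 and 7.72 with CdCl, against 8.54, 8.37 and 8.53 with vehicle. The fall was 5.74-fold with Di (-2.52 ± 0.22, adjusted p = 3.04e-10) and 1.55-fold with CdCl (-0.63 ± 0.22, adjusted p = 0.0235). SREBF1 read 5.14, 5.33 and 5.95 with Di and 6.49, 6.73 and 6.35 with CdCl, against 6.95, 7.23 and 6.76 with vehicle, with Di at -1.50 ± 0.20 (adjusted p = 3.37e-07) and CdCl at -0.45 ± 0.20 (adjusted p = 0.0625). ACSS2 read 8.05, 7.92 and 8.06 with Di and 8.53, 8.73 and 8.81 with CdCl, against 9.19, 9.35 and 9.14 with vehicle, and both groups lay wholly below vehicle. PMVK stood at 6.96, 7.14 and 7.25, against 7.82, 8.15 and 8.29 with vehicle (-0.97 ± 0.13, adjusted p = 5.15e-07), while its CdCl difference was 0.08 ± 0.13. SREBF2 read 7.23, 7.02 and 7.09 with Di and 7.42, 7.45 and 7.34 with CdCl, against 7.76, 7.61 and 7.74 with vehicle, and passed with Di (-0.59 ± 0.17, adjusted p = 0.00591). That call was lost with the mean of its 3 kept probe sets. The next brightest of these read 7.11, 6.90 and 7.10 with Di, against 7.04, 7.15 and 7.20 with vehicle. At 12 h SREBF2 read 7.60, 7.64 and 7.56 with Di and 7.80, 7.84 and 7.76 with CdCl, against 7.87, 8.15 and 8.24 with vehicle, and passed with neither (-0.49 ± 0.17 and -0.29 ± 0.17).

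The 4 enzymes that rose with Di at 48 h were MSMO1, SC5D, NSDHL and SQLE, while TM7SF2 (-2.52) and EBP (-0.52) of the same later steps fell and LSS (-0.22), DHCR7 (-0.35) and HSD17B7 (0.25) did not pass. MSMO1 read 13.90, 13.95 and 13.99 with Di, against 13.48, 13.35 and 13.38 with vehicle, a rise of 0.55 ± 0.08 (adjusted p = 8.89e-07). SC5D read 11.20, 11.10 and 11.12 with Di, against 10.68, 10.77 and 10.62 with vehicle (0.45 ± 0.09, adjusted p = 0.000258). NSDHL (0.32 ± 0.13) and SQLE (0.26 ± 0.10) rose less, with adjusted p of 0.0415 and 0.0335. At 12 h Di lowered ACLY (-0.30 ± 0.07, adjusted p = 0.0157) and ACSS2 (-0.48 ± 0.11, adjusted p = 0.00942), the suppliers of acetyl-CoA. The ACLY call was lost with each array centred and with the mean of its 3 kept probe sets. ACSS2 lay at 9.20, 9.25 and 9.10 with Di, against 9.60, 9.72 and 9.65 with vehicle, without overlap.

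Leaving out 1 array ended 4 of the 15 calls of CdCl at 12 h. These were TM7SF2 (without any 1 vehicle array or CdCl replicate 1 or 3, -0.63 to -0.55), EBP (without vehicle replicate 1 or 3 or CdCl replicate 1 or 2, -0.28 to -0.21), FDPS (without vehicle replicate 1, -0.23) and HMGCS1 (without vehicle replicate 1, 0.35). At 48 h with CdCl 3 of 15 calls ended: TM7SF2 (without vehicle replicate 1 or 3 or CdCl replicate 3, -0.61 to -0.57), EBP (without vehicle replicate 3 or CdCl replicate 1, -0.29 to -0.28) and NSDHL (without vehicle replicate 1 or 2 or CdCl replicate 2, 0.30 to 0.36). With Di at 12 h ACLY ended without vehicle replicate 2 or 3 or Di replicate 2 (-0.28 to -0.24), which brought the count of 2 down to 1. With Di at 48 h 4 of 17 ended: SQLE (without any 1 vehicle array or Di replicate 1 or 3, 0.22 to 0.27), NSDHL (without vehicle replicate 1 or 2 or any 1 Di array, 0.29 to 0.33), INSIG1 (without vehicle replicate 2 or Di replicate 1, -0.48 to -0.44) and ACAT2 (without Di replicate 1, -0.31).

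CdCl and Di were compared directly at each time, at doses the labels do not give. At 12 h 8 members were lower with CdCl than with Di and 3 higher, where 22.1% of all genes were lower and 13.6% higher. STARD4 (1.13 ± 0.24), HSD17B7 (0.85 ± 0.18) and HMGCS1 (0.52 ± 0.13) were higher with CdCl. MVK read 6.25, 6.49 and 5.62 with CdCl, against 6.98, 7.16 and 7.11 with Di, and was lower by 0.97 (adjusted p = 0.00578). At 48 h 5 were lower with CdCl and 5 higher, against 17.1% and 20.5% of all genes. TM7SF2 (1.89 ± 0.22), PMVK (1.05 ± 0.13), SREBF1 (1.05 ± 0.20), ACSS2 (0.68 ± 0.11) and AACS (0.37 ± 0.13) were higher with CdCl than with Di. SQLE (-0.94 ± 0.10), MSMO1 (-0.85 ± 0.08), SC5D (-0.77 ± 0.09), HMGCS1 (-0.60 ± 0.13) and IDI1 (-0.40 ± 0.16) were lower. For FASN the 2 compounds were not told apart at 48 h (-0.17 ± 0.19, adjusted p = 0.521), nor for INSIG1 (-0.34 ± 0.20, adjusted p = 0.196). Without CdCl replicate 1 the 12 h count of 11 became 7. At 12 h 5 of 11 calls held when any 1 array was left out. MVK was lost without CdCl replicate 3 (-0.72), which also ended the calls of NSDHL, SREBF1 and TM7SF2. NSDHL and TM7SF2 were each lost without 5 of the 6 arrays, SREBF1 and EBP without 3 and ELOVL6 without Di replicate 1. At 48 h IDI1 (-0.45 to -0.31) and AACS (0.31 to 0.39) were each lost without 5 of 6 arrays, and the other 8 held when any 1 array was left out. IDI1 was lost also with no filter, with centred arrays and with the mean of its probe sets. HMGCS1 and SC5D were lost with the mean of their kept probe sets. The dimmer HMGCS1 probe set read 8.65, 9.32 and 9.11 with CdCl, against 8.03, 9.33 and 8.62 with Di.

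Whether an effect changed between the times was tested as a difference of differences. The high-dose Kbr effect became more negative from 24 h to 48 h for 7 members and more positive for 2, where 8.10% and 6.89% of all genes did so. TM7SF2 (-2.79 ± 0.32, adjusted p = 1.93e-06), ACSS2 (-0.90 ± 0.16) and FDPS (-0.76 ± 0.12) led the first, and STARD4 (0.99 ± 0.33) and NSDHL (0.54 ± 0.18) were the second. After quantile normalization 7 became more negative and 0 more positive, and with each array centred 7 and 1. Over all genes centring gave 886 more negative and 743 more positive, in place of 899 and 764. No count of all genes is given after quantile normalization. The low-dose effect changed for TM7SF2 (-1.24 ± 0.32) and FDPS (-0.47 ± 0.12), both more negative, and for 0 in the other direction, against 1.80% and 2.54% of all genes. The paired fit, with the replicate block, had 8 members changed for the low dose, 6 more negative and 2 more positive, against 5.15% and 6.06% of all genes in that fit, the added ones being PMVK (adjusted p = 0.0227), LSS (0.0211), EBP (0.0270), SCD (0.0478), NSDHL (0.0244) and STARD4 (0.0210). For the high dose it added EBP (0.0211), SC5D (0.0445) and SREBF2 (0.00217), for 9 more negative and 3 more positive, against 12.7% and 11.3% of all genes. Without vehicle replicate 3 at 24 h the low-dose count of 2 became 0, and without low-dose replicate 3 at 48 h it became 4. It was 1 without vehicle replicate 1 at 48 h or without low-dose replicate 1 or 2 at either time. Of the 9 high-dose changes, AACS was lost without 5 of the 12 arrays, NSDHL without 8 and STARD4 without 10, and 6 held.

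The Di effect became more negative from 12 h to 48 h for 8 members and more positive for 3, against 13.9% and 15.1% of all genes. TM7SF2 (-2.50 ± 0.32, adjusted p = 5.99e-07), SREBF1 (-1.18 ± 0.28), PMVK (-0.93 ± 0.18) and ACSS2 (-0.73 ± 0.16) were the largest, and SQLE, SC5D and MSMO1 were the 3 that turned upward. The CdCl effect became more negative for 6 and more positive for 2, against 7.78% and 16.4% of all genes. STARD4 (-1.11 ± 0.33), HMGCS1 (-1.02 ± 0.19), INSIG1 (-0.96 ± 0.28) and HSD17B7 (-0.72 ± 0.25) led the first, and NSDHL (0.51 ± 0.18) and LSS (0.47 ± 0.16) were the second. Of the CdCl effects, 6 became more negative and 0 more positive with each array centred on its median, and 6 and 1 after quantile normalization. Over all genes centring gave 1038 more negative and 1362 more positive, in place of 863 and 1824. Leaving out vehicle replicate 1 or 2 at 12 h or CdCl replicate 2 at 48 h brought the CdCl count of 8 down to 4. It was 5 without vehicle replicate 2 at 48 h, CdCl replicate 1 or 2 at 12 h or CdCl replicate 1 at 48 h, and leaving out Di replicate 1 at 48 h brought the Di count of 11 down to 7. Of the CdCl changes HMGCS1, MSMO1 and STARD4 held when any 1 array was left out. INSIG1 was lost without CdCl replicate 2 at 48 h, and HSD17B7, NSDHL, ELOVL6 and LSS were each lost without 7 to 9 of 12 arrays. Of the Di changes 7 held, and SQLE was lost without 2 arrays, FDPS without 3, SC5D without 7 and DHCR7 without 10. With the mean of the kept probe sets, INSIG1, ELOVL6 and LSS were also lost for CdCl, and SQLE, SC5D and DHCR7 for Di.

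The vehicle cells themselves changed over time, most of all in the CdCl and Di set. From 12 h to 48 h 14 members were lower and 4 higher at the later time, where 27.3% of all genes were lower and 18.3% higher. FASN read 7.72, 7.85 and 7.58 at 48 h, against 9.23, 9.29 and 9.44 at 12 h (-1.60 ± 0.19, adjusted p = 1.22e-07). ELOVL6 read 8.88, 8.93 and 8.66 at 48 h, against 10.26, 10.23 and 10.38 at 12 h (-1.47 ± 0.12). ACAT2 (-1.15 ± 0.13), EBP (-1.05 ± 0.11) and SREBF1 (-0.89 ± 0.20) also fell by large steps without treatment. STARD4 (1.00 ± 0.24), MVK (0.73 ± 0.27), TM7SF2 (0.61 ± 0.22) and PMVK (0.33 ± 0.13) were higher at 48 h. The calls of MVK, TM7SF2, PMVK and IDI1 were each lost without 4 of the 6 arrays and with no filter on low values, and 14 of 18 held without any 1 array. On the other 2 kept probe sets of MVK the change was -0.12 ± 0.18 and -0.16 ± 0.31, which did not pass. Between 24 h and 48 h of the Kbr set 3 vehicle values rose and 0 fell, against 5.08% and 7.16% of all genes. These were ACSS2 (0.58 ± 0.11), MSMO1 (0.32 ± 0.08) and SCD (0.30 ± 0.07). With the replicate block 8 members passed, 5 higher and 3 lower, against 8.82% and 13.7% of all genes in that fit, the added ones being SQLE (adjusted p = 0.0282), SREBF2 (0.0274), ACAT2 (0.0189), NSDHL (0.0139) and FASN (0.0249). FASN at -0.29 ± 0.19 over this interval stands beside -1.60 ± 0.19 in the other set, whose interval was longer, and the values are only set side by side.

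**Figure D4:**
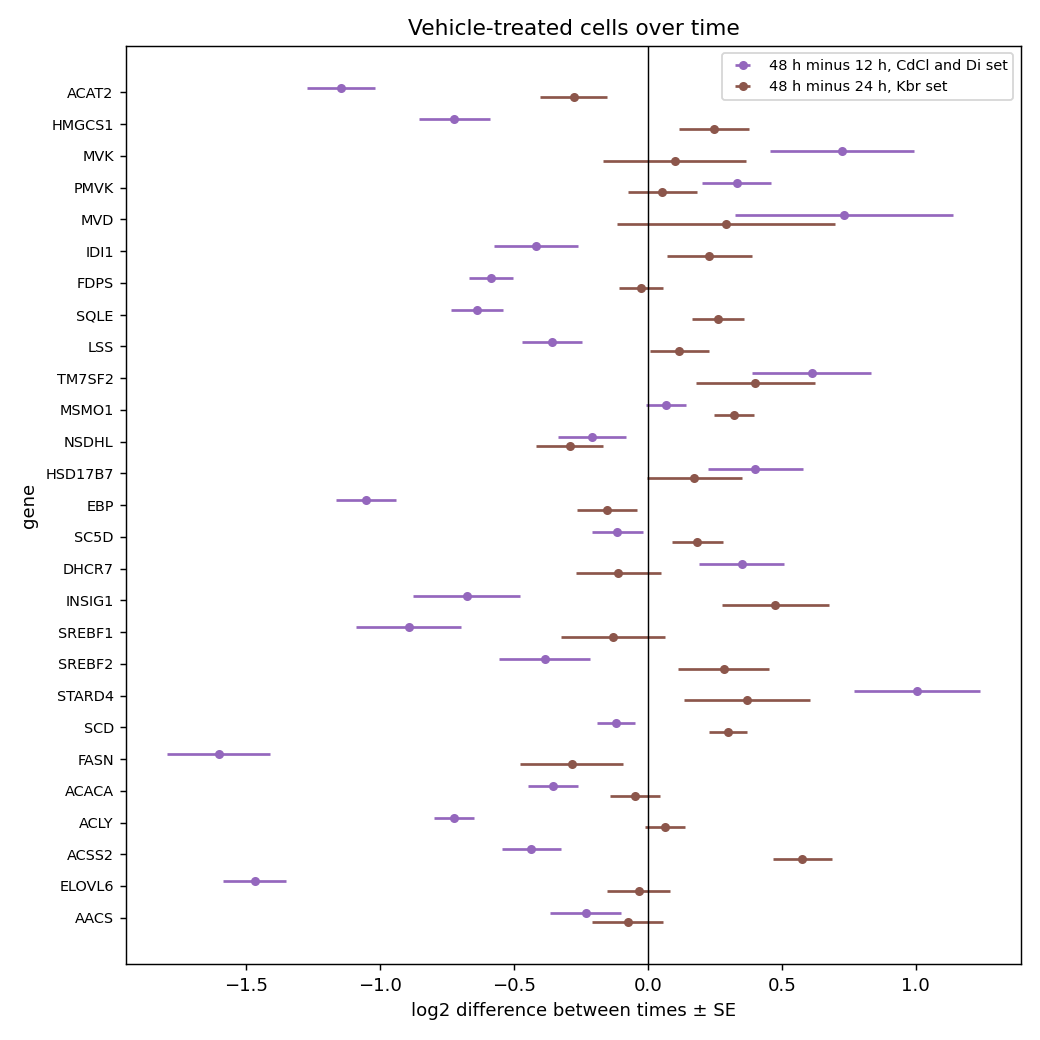
Change of the 27 genes in vehicle-treated cells. The horizontal axis is the log2 difference between times with its SE, for 48 h minus 12 h in the CdCl and Di set and for 48 h minus 24 h in the Kbr set. FASN and ELOVL6 lie farthest left, at -1.60 and -1.47, in the longer interval.

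For 15 members more than 1 probe set was kept, and for some the choice of probe set changes the result. HMGCS1 at 12 h, on its second, dimmer probe set, read 11.15, 11.17 and 11.22 with CdCl and 10.59, 10.98 and 10.66 with Di, against 9.36, 8.57 and 8.92 with vehicle. It rose by 2.22 ± 0.27 with CdCl and 1.79 ± 0.27 with Di (limma over all kept probe sets, adjusted p = 2.35e-07 and 0.000168), where the brighter probe set gave 0.40 and -0.13. SCD had 4 kept probe sets, and the dimmest pair differed from the others. The brighter of that pair read 10.24, 10.18 and 10.28 with CdCl and 9.94, 10.14 and 9.96 with Di, against 9.36, 8.80 and 8.79 with vehicle at 12 h. That is a rise of 1.25 ± 0.17 and 1.03 ± 0.17, while the brightest SCD probe set gave -0.15 and -0.22 and the next brightest -0.06 ± 0.11 and -0.04 ± 0.11, which did not pass. These vehicle arrays, low on the dimmer HMGCS1 probe set and on the dimmest pair for SCD, also had the widest actin 3′ to 5′ difference of the series (1.84, against 1.71 for CdCl and 1.40 for Di at 12 h). Its part in these values was not tested. ACACA at 48 h fell on the probe set used and rose on the dimmer one, by 0.42 ± 0.11 with low and 0.40 ± 0.11 with high Kbr. The dimmer one lay near the floor of 4. It read 4.3, 4.7 and 4.7 with vehicle, 5.0, 5.0 and 5.0 with low and 4.9, 4.7 and 5.3 with high Kbr. The probe sets used for IDI1 and HSD17B7 are of a type that may bind other transcripts as well.

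**Figure D5:**
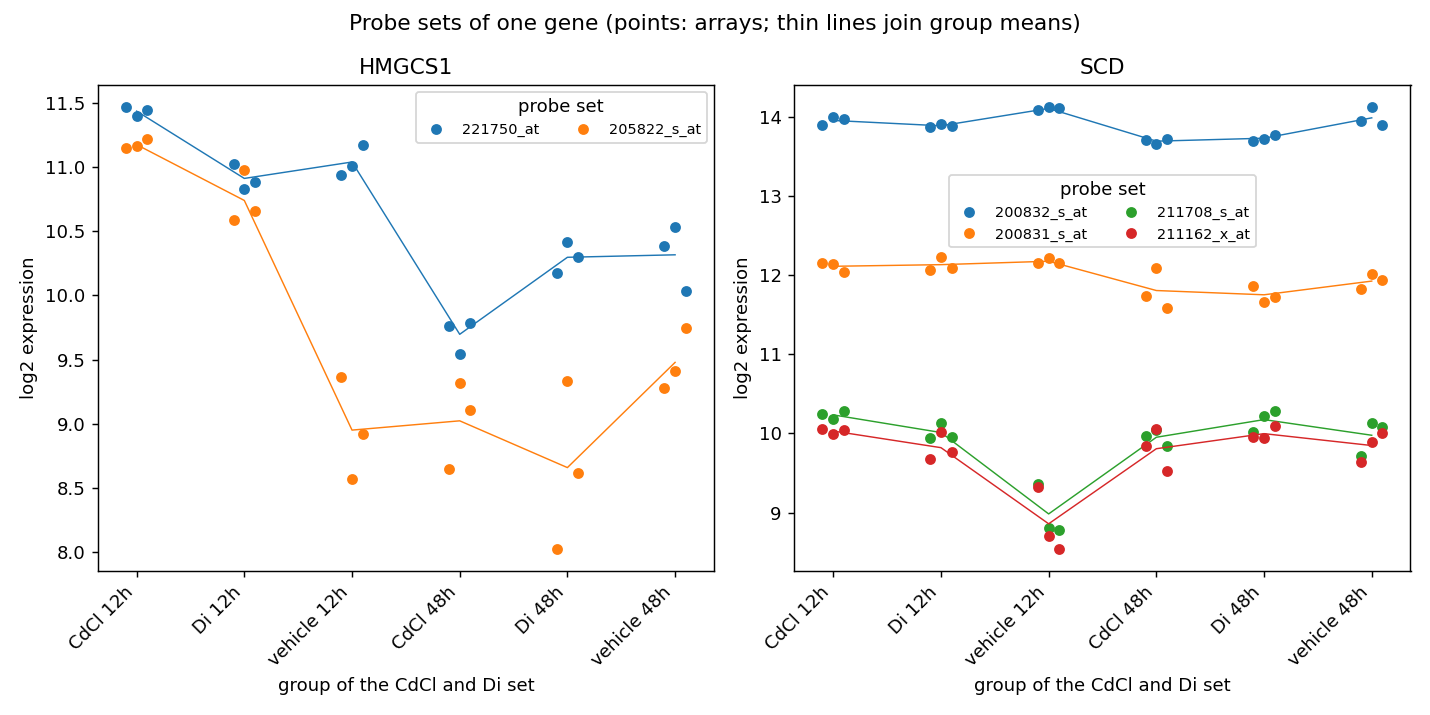
Log2 expression of each kept probe set of HMGCS1 (left) and SCD (right) by group, for CdCl, Di and their vehicle at 12 h and 48 h. Points are arrays and thin lines join group means to guide the eye. At 12 h the vehicle arrays lie below those of CdCl and Di on the dimmer HMGCS1 probe set and on the dimmest pair of SCD probe sets, and not on the other SCD probe sets.

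The neighbours of the pathway were read from 5 further lists. Of 9 measured genes of SREBP processing and sterol sensing, 7 fell and 1 rose with high Kbr at 48 h, where 34.5% of all genes fell and 27.3% rose. The list median was -0.39, beside -0.06 over all genes. ERLIN2, an endoplasmic reticulum protein that takes part in sterol-driven degradation, fell by 1.66 and MBTPS1, the first protease to cut the SREBF proteins, by 0.89 on the log2 scale (adjusted p = 4.20e-12 and 3.34e-10). INSIG2, the second retention protein, fell there as well (-0.64 ± 0.14), and it rose with CdCl at 12 h (1.21 ± 0.14) and 48 h (0.72 ± 0.14). With CdCl at 12 h 5 of the 9 fell and 1 rose, against 30.5% and 13.4% of all genes, and ERLIN1 (-1.16 ± 0.08) and MBTPS1 (-0.73 ± 0.08) fell most. MBTPS1 fell also with Di at 12 h (-0.52 ± 0.08).

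Of 11 genes of cholesterol transport, storage and the LXR response, 2 rose (18.2%) and 5 fell (45.5%) with high Kbr at 48 h, where 27.3% of all genes rose and 34.5% fell. With CdCl at 48 h 6 rose and 2 fell, against 20.7% and 22.0% of all genes. With Di at 48 h 3 rose and 5 fell, against 19.1% and 23.9%. SOAT1, which esterifies cholesterol for storage, rose with high Kbr at 48 h (0.87 ± 0.18), and LPCAT3 (-0.97 ± 0.19) and LIPA (-0.85 ± 0.09), the lysosomal lipase, fell. NPC1, the lysosomal cholesterol exporter, rose with CdCl at 12 h (0.87 ± 0.12) and 48 h (0.89 ± 0.12). ABCA1, the cholesterol efflux pump, rose with CdCl at 12 h (0.79 ± 0.12) and with Di at 48 h (0.96 ± 0.12). With Di at 48 h MYLIP, a ubiquitin ligase induced by LXR, fell (-1.54 ± 0.23), as did TMEM97 (-0.96 ± 0.10), which fell with CdCl at 48 h too (-1.20 ± 0.10). Of 9 genes that use isoprenoids, 3 rose (33.3%) and 2 fell (22.2%) with high Kbr at 48 h, near the 27.3% and 34.5% of all genes. COQ2, of coenzyme Q synthesis, fell (-1.28 ± 0.09), while PDSS1 (1.16 ± 0.26) and PGGT1B (0.92 ± 0.17) rose.

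Of 16 genes of fatty acid oxidation and the PPAR response, 12 fell and 1 rose with high Kbr at 48 h, where 34.5% of all genes fell and 27.3% rose. The list median was -0.83, beside -0.06 over all genes. ECI1 (-1.69 ± 0.12), ACADVL (-1.56 ± 0.16) and DECR1 (-1.43 ± 0.16), enzymes of mitochondrial beta-oxidation, fell most. With Di at 48 h 5 fell (31.2%) and 4 rose (25.0%), near the 23.9% and 19.1% of all genes, and with CdCl at 48 h 2 fell (12.5%) and 3 rose (18.8%), against 22.0% and 20.7%. PDK4, a kinase that shuts off pyruvate oxidation, was the largest change in both (-2.31 ± 0.24 with Di and -2.47 ± 0.24 with CdCl). PLIN2, the coat protein of lipid droplets, rose with CdCl at 12 h (1.47 ± 0.11) and with Di at 48 h (1.25 ± 0.11). Of 20 genes of fatty acid activation, elongation and lipid assembly, 11 fell (55.0%) and 5 rose (25.0%) with high Kbr at 48 h, against 34.5% and 27.3% of all genes. DGAT2 (-1.66 ± 0.32), SCD5 (-1.44 ± 0.18) and AGPAT2 (-1.35 ± 0.18) fell most there. With Di at 48 h 7 of these fell and 3 rose, against 23.9% and 19.1% of all genes, SCD5 (-1.52 ± 0.18) among the falls and ME1, a source of NADPH, among the rises (1.74 ± 0.09). ME1 also rose with CdCl at 12 h (1.26 ± 0.09).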

How the data were processed

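HK-2 cells of 12 groups were measured on 36 single-colour Affymetrix arrays, 3 per group. The authors deposited log2 values per probe set made with GCRMA, per the submitters' processing notes, which subtracts background by probe sequence, quantile-normalizes and summarizes the probes; its version is not given in the sources used here. Of 54675 probe sets, 41091 are named for 1 gene in the platform annotation, 1801 for several, and these were left out. Control probe sets number 62. Each gene was read from its brightest probe set by mean, if above 4 on at least 3 arrays. The background correction compresses values near this floor, so the number of arrays limits the precision and low values are bounds.

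One model over all 36 arrays with a mean per group was fitted with limma 3.58.1 in R 4.3.3 (lmFit, contrasts.fit and eBayes), in 18 comparisons, and p-values were adjusted by the Benjamini-Hochberg method over 11092 genes at a threshold of 0.05. The members and the lists were chosen with earlier results of these data known. Any member may be named; values per array are given for those that passed, at most 12 per comparison by size, and for INSIG1, SREBF1 and SREBF2; of the further lists up to 3 genes that passed were named by size. A p-value covers the spread between arrays labelled biological replicates.

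Whether equal replicate numbers mark shared batches was checked by correlating deviations from the group means. In the Kbr set all 45 same-number pairs had a correlation over 0.1 (0.218 to 0.701) and all 18 arrays lay nearest to their own number, so the numbers were taken to pair the arrays, on these data alone. In the CdCl and Di set 8 of 45 pairs did (-0.348 to 0.416), and they were not paired. Alternatives were no filter, a floor of 6, quantile normalization, a variance trend in eBayes, centring of arrays on their medians, the mean of a gene's kept probe sets, a replicate block, fewer groups in the fit, and leaving out each array.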

Additional observations from a re-analysis of the deposited data

Results flagged for a closer look

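The results below have effects on the same gene that differed between 2 time points by a test of the difference itself (limma, adjusted p under 0.05 over 11092 genes). Values are log2 differences from vehicle at the later time minus those at the earlier time, and no outlying array was sought, since groups held 3 arrays. The high-dose Kbr effect became more negative from 24 h to 48 h for TM7SF2 (-2.79), ACSS2 (-0.90), FDPS (-0.76), PMVK (-0.73), LSS (-0.72), AACS (-0.59) and SCD (-0.44), and more positive for STARD4 (0.99) and NSDHL (0.54). The STARD4 value includes the low replicate 3 of the high dose at 48 h. For the low dose the effect became more negative for TM7SF2 (-1.24) and FDPS (-0.47).

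Between 12 h and 48 h the Di effect became more negative for TM7SF2 (-2.50), SREBF1 (-1.18), PMVK (-0.93), ACSS2 (-0.73), ELOVL6 (-0.65), DHCR7 (-0.61), EBP (-0.57) and FDPS (-0.37). It became more positive for SQLE (0.43), SC5D (0.38) and MSMO1 (0.36). For CdCl over the same interval it became more negative for STARD4 (-1.11), HMGCS1 (-1.02), INSIG1 (-0.96), HSD17B7 (-0.72), MSMO1 (-0.53) and ELOVL6 (-0.45), and more positive for NSDHL (0.51) and LSS (0.47). The vehicle arrays of each time enter these differences, and several of the genes also moved in vehicle over time: from 12 h to 48 h ELOVL6 fell by 1.47 and EBP by 1.05 on the log2 scale, and STARD4 rose by 1.00. Their part in the changed effects was not tested.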

How the results depend on the processing

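Over the 18 comparisons, the member differences that passed made 219 results, and their 3465 values under the alternatives kept direction and call in 3051, lost the call in 409 and reversed in 5. A further 6 reversals were among the 267 results that had not passed, of whose 4473 values 186 newly passed. All 11 reversals came from averaging the kept probe sets. They were IDI1 (-0.42), SQLE (0.025) and SCD (0.55) for CdCl at 12 h, HMGCS1 (0.83) and SCD (0.43) for Di at 12 h, ACACA (0.024) for low Kbr at 48 h, HMGCS1 (-1.25), SQLE (-0.17) and SC5D (-0.049) for the change of the Di effect, and LSS (0.18) and SCD (0.40) for vehicle over 12 h to 48 h. The counts of members that passed moved by over 1.5 times as follows. With the replicate block they became 8 for Di at 12 h, where the numbers do not pair, 16 for low Kbr at 24 h, 9 for high against low Kbr at 24 h, 8 for the change of the low-dose effect and 8 for vehicle over 24 h to 48 h; no other count moved so far. Fitted on the arrays of their own set, Di at 12 h had 9, CdCl against Di at 12 h had 17, high against low Kbr had 2 at 24 h and 10 at 48 h, and the change of the low-dose effect had 0. Fitted on the compared groups alone, low Kbr had 1 at 24 h and 10 at 48 h, high against low Kbr 1 at 24 h and 7 at 48 h, the changes of the low-dose and high-dose effect 0 and 3, and vehicle over 24 h to 48 h 0; these fits have fewer arrays to estimate the error. Median centring gave 1 for Di at 12 h and 2 and 10 for high against low Kbr at 24 h and 48 h, quantile normalization gave 3 for the 24 h comparison of the doses, no filter gave 5 for the change of the CdCl effect, and a variance trend gave 4 for that of the low dose. Leaving out 1 array gave 11 to 14 members for CdCl at 12 h, 13 to 15 at 48 h, 1 to 2 for Di at 12 h, 13 to 16 at 48 h, 7 to 12 and 17 to 21 for low Kbr at 24 h and 48 h, 18 to 21 and 24 to 24 for high Kbr, 2 to 4 and 10 to 15 for high against low Kbr, 7 to 9 and 8 to 10 for CdCl against Di, 4 to 7, 7 to 11, 0 to 4 and 6 to 10 for the changes of the CdCl, Di, low-dose and high-dose effects, and 15 to 17 and 2 to 4 for the vehicle intervals. Over all genes, median centring changed the split of higher and lower calls to 1780 and 2522 (from 1484 and 3386) for CdCl at 12 h, 226 and 277 (from 185 and 510) for Di at 12 h, 2220 and 2280 (from 1711 and 2806) for high Kbr at 24 h, 140 and 234 (from 76 and 411) for high against low Kbr at 24 h, 1362 and 1038 (from 1824 and 863) for the change of the CdCl effect and 192 and 234 (from 282 and 200) for that of the low dose. The causes of these shifts were not tested. For the fits on fewer groups or arrays, quantile normalization, no filter and the variance trend, no share of all genes is given. Their member counts therefore have no background beside them. Values near the floor, as for TM7SF2 in high Kbr, give bounds only.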
